A study of Mus musculus with 10 samples.

Results

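Oxidative phosphorylation genes were followed in the liver, in mice with and without Me1 in their hepatocytes. The members were the rows of the deposited table whose KEGG column holds the oxidative phosphorylation pathway, without the vacuolar proton pump genes (Atp6 names and Tcirg1), which KEGG lists in the same pathway. This gave 105 of 31218 genes, after 24 of 129 rows had been left out, with 92 encoded in the nucleus and 13 in mitochondrial DNA. Of the 105 members, 103 passed the filter on low counts and were tested. Atp12a, a non-gastric proton-potassium pump, and Cox4i2, the lung isoform of a cytochrome oxidase subunit, did not pass it. The nuclear member Ndufb4c is annotated as a processed pseudogene, with a transcript nearly identical to that of Ndufb4. It is counted below with the complex I subunits, and reads of the 2 may be shared.

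The genotypes compared had 5 livers each, all after 16 weeks of high-fat diet. HKO mice lacked Me1, a malic enzyme of the cytosol and a source of NADPH, in hepatocytes (genotype written as Me1 Alb/Alb), and Flox mice were their wild-type littermates (Me1 flox/flox). The knockout is described as hepatocyte-specific, so other liver cells keep Me1, and the labels give no sex or age. Me1 itself had 20.5 to 26.9 CPM in the HKO livers, against 145 to 228 CPM in the Flox livers, a log2 fold change of -2.93 (SE 0.13, adjusted p = 8.5e-07 in edgeR). CPM is a count scaled to the size of its library with TMM factors (a factor per library, set so that most genes do not differ), and log2 fold changes are HKO minus Flox. Total counts were 53541800 to 59952868 in HKO livers and 52790000 to 60765120 in Flox livers.

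In oxidative phosphorylation, complexes I and II pass electrons from NADH and succinate to coenzyme Q, complex III passes them to cytochrome c, and complex IV passes them to oxygen. Complexes I, III and IV pump protons out of the mitochondrial matrix, and complex V, the ATP synthase, lets them return and makes ATP. Most subunits are encoded by nuclear genes and imported, while the mitochondrial genome encodes core subunits of complexes I, III, IV and V. Hepatocytes depend on this chain to oxidise the NADH and FADH2 made by fatty acid oxidation.

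Some nuclear genes of complexes I, III and V were lower in HKO livers, by modest amounts. Complexes II and IV had 1 called gene each, of 4 and of 15 tested, against 6.40% lower among all tested genes. For complex IV that share (6.67%) was close to the share of all genes. None of the 13 mitochondrially encoded genes passed the test, against 11.3% of all tested genes called in either direction. So few genes do not set them apart from that share. Of 90 tested nuclear members, 22 (24.4%) fell at an edgeR adjusted p under 0.05, against 6.40% of all 18065 tested genes. None of the nuclear members rose, against 4.86% of all tested genes, and 0 were higher at an unadjusted p under 0.05 or by DESeq2. The log2 fold change was negative in 85 of the 90, with a median of -0.18, while over all tested genes the median was 0.02. In 24 of the 90 every HKO liver lay below every Flox liver, against 6.48% of all tested genes. In 0 did every HKO liver lie above, against 4.41% of all tested genes. The called genes were 13.8% to 36.2% lower. The largest drop was that of Ppa1, which is outside the complexes, and the 20 called subunits were at most 25.5% lower. In bulk liver RNA, fewer cells of a type and less RNA per cell cannot be told apart.

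**Figure D1:**
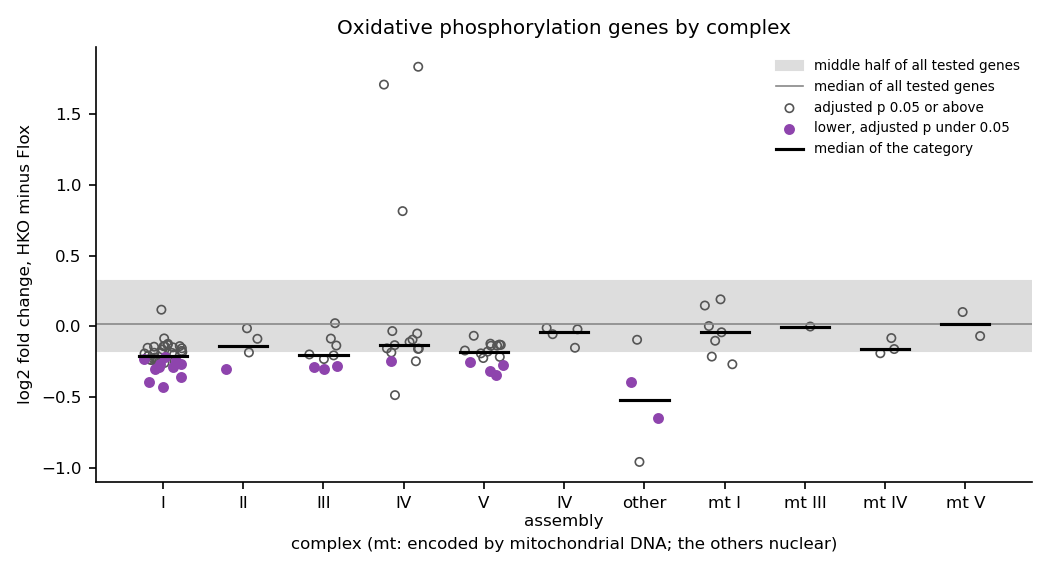
Log2 fold change (HKO minus Flox) of each tested member, by complex and genome. Filled points fell at an edgeR adjusted p under 0.05 and open points did not pass; thick bars are medians, and the band is the middle 50% of all tested genes. The 22 filled points are all nuclear, and the nuclear medians of complexes I, III and V were -0.21, -0.20 and -0.18.

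The size and the sign of this shift depended on how the libraries were scaled. TMM factors were 0.998 to 1.16 in HKO livers and 0.896 to 0.965 in Flox livers, so the groups did not overlap. As a plain share of all counts, nuclear members took 0.871% to 0.959% in HKO livers, against 0.851% to 0.928% in Flox livers, and the groups overlapped. After TMM scaling, the summed nuclear members reached 7498 to 9111 CPM in HKO livers, against 9197 to 10358 CPM in Flox livers, with no overlap. On log2(FPKM + 0.5) without further scaling, the nuclear median was 0.04, and the median of all tested genes was 0.14. Of the 90 nuclear members 32 were negative, and by limma 1 was lower and 2 were higher. The lower one was Ppa1, the only gene of the 22 that kept its call there. The higher ones were the subunits Sdha (0.20, adjusted p = 0.0345 in limma) and Uqcr11 (0.24, adjusted p = 0.042 in limma). The nuclear median thus lay below that of all genes on both scales, and its sign differed between them.

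Some markers of other cell types rose in HKO livers, with sums that overlapped between the groups, and single libraries stood apart. Summed hepatocyte markers (8 genes) were 67183 to 84700 CPM in HKO livers and 89065 to 107391 CPM in Flox livers. Only 1 of the 8 passed the test, as lower, but all 8 had a negative log2 fold change. Their median was -0.31, against -0.18 for the tested nuclear members. Of 8 macrophage markers 4 rose, with sums of 368 to 492 CPM in HKO livers and 253 to 422 CPM in Flox livers. Of 7 stellate and fibroblast markers 5 rose, with sums of 299.5 to 551 CPM in HKO and 144 to 327 CPM in Flox livers. Among all tested genes 4.86% rose. Des is on both the stellate and the skeletal muscle list. Of 5 endothelial markers and of 2 tested adipocyte markers none passed. None of these markers was at 0 in all livers. HKO 4 and HKO 5 also held 434 and 464 CPM of 14 summed skeletal muscle markers, against 33.5 to 38.4 CPM in the other HKO livers and 5.24 to 41.8 CPM in Flox livers. The same 2 livers held 292 and 314 CPM of 8 summed epidermis markers, against 1.91 to 7.76 CPM in the other HKO livers and 1.43 to 3.82 CPM in Flox livers. The part of these cells in the lower nuclear members was not tested. With each liver left out in turn, 11 of the 22 called genes passed every time and the other 11 lost the call at least once. HKO 4 had the lowest HKO value in 68 of 82 tested nuclear subunits, and Flox 1 the highest Flox value in 64. Without HKO 4 and 5, 6 of the 22 still passed (Ndufb10, Ndufb7, Atp5j, Atp5e, Ppa1 and Lhpp) and all 22 kept a negative fold change. Those 6 were 6.67% of the tested nuclear members, against 2.91% of all genes lower in that comparison, and 0 nuclear members were higher, against 2.45%.

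**Figure D2:**
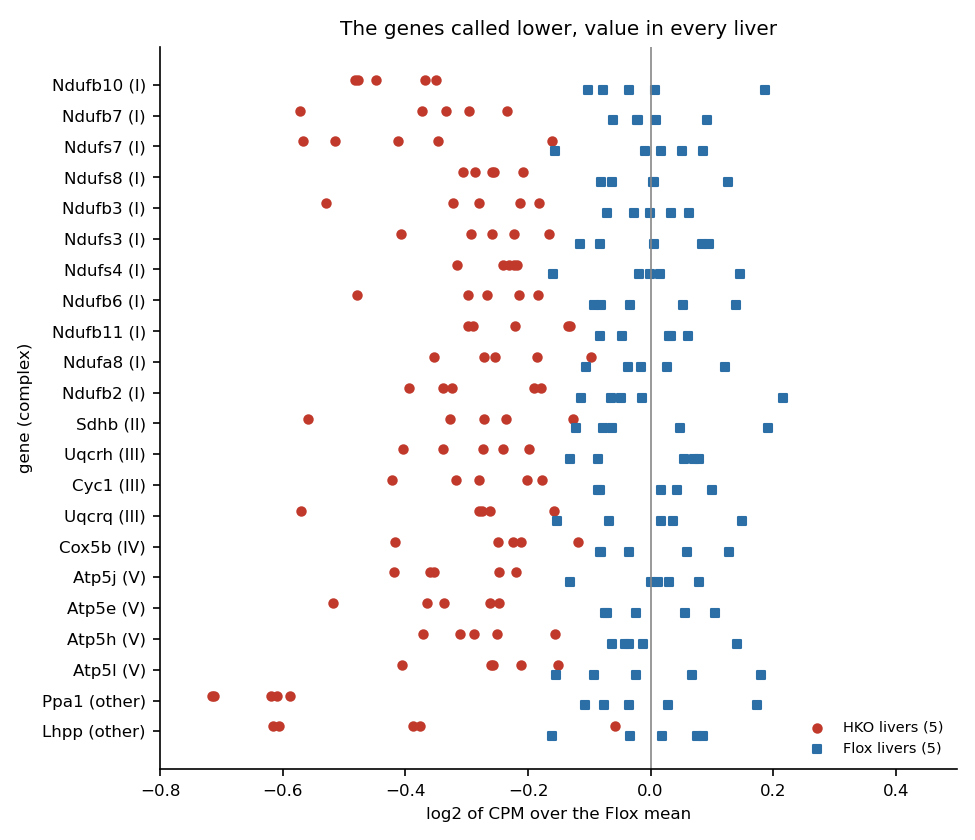
Value of each of the 22 nuclear genes called lower, in every liver, as log2 of CPM over the Flox mean. Circles are 5 HKO livers and squares 5 Flox livers. In 19 of the 22 genes all HKO livers lie left of all Flox livers, and in Ndufa8, Atp5l and Lhpp they overlap.

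Complex I, the NADH dehydrogenase, held 11 of the 22. Of its 39 tested nuclear members 11 (28.2%) fell, against 6.40% of all tested genes, and 38 had a negative fold change, against 48.0% of all. In 14 every HKO liver was below every Flox liver, against 6.48% of all. Ndufb10 (ENSMUSG00000040048, chromosome 17, 24722060 to 24724478, minus strand), an accessory subunit of the membrane arm, had the smallest p among the subunits. It had 73.5, 78.7, 71.8, 72.0 and 77.7 CPM in HKO livers, against 97.9, 95.1, 93.5, 114 and 101 CPM in Flox livers. Every HKO liver lay below every Flox liver, and the means of 74.7 ± 3.24 and 100.3 ± 8.28 CPM (SD, n = 5 each) differed by a log2 fold change of -0.42 (SE 0.07, adjusted p = 0.00277 in edgeR). Ndufb7, another accessory subunit of the membrane arm, had 38.8, 40.9, 42.7, 33.8 and 39.9 CPM in HKO livers and 53.6, 49.5, 49.5, 50.6 and 48.1 CPM in Flox livers. It differed by -0.36 (SE 0.07, adjusted p = 0.00722 in edgeR), again with no overlap.

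Core subunits that carry or neighbour the iron-sulphur clusters near the coenzyme Q site were among the genes that fell. Ndufs7, which holds the last cluster before coenzyme Q, had 32.5, 38.7, 34.0, 30.3 and 29.2 CPM in HKO livers, against 43.8, 38.8, 43.0, 45.9 and 44.8 CPM in Flox livers. The highest HKO liver and the lowest Flox liver nearly met, and the log2 fold change was -0.39 (SE 0.08, adjusted p = 0.0114 in edgeR). Ndufs8, which also carries iron-sulphur clusters, had 37.9, 39.3, 38.1, 37.2 and 36.7 CPM in HKO livers, against 49.6, 45.5, 43.5, 45.6 and 42.9 CPM in Flox livers. The HKO values were tightly grouped below all Flox values, with a log2 fold change of -0.26 (SE 0.06, adjusted p = 0.0119 in edgeR). Ndufs3, a core subunit without a cluster, had 76.2, 69.8, 71.5, 64.5 and 73.3 CPM in HKO livers, against 90.7, 80.8, 79.0, 91.5 and 85.9 CPM in Flox livers. The lowest Flox liver was above all HKO livers, with a log2 fold change of -0.27 (adjusted p = 0.0232 in edgeR).

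The remaining complex I genes that fell were Ndufb3, Ndufs4, Ndufb6, Ndufb11, Ndufa8 and Ndufb2, all accessory subunits. Ndufb3 had 34.0, 31.8, 30.9, 26.7 and 33.3 CPM in HKO livers, against 37.9, 38.6, 36.7, 39.5 and 40.3 CPM in Flox livers, which left a gap between the groups. The log2 fold changes of these 6 lay between -0.30 for Ndufb3 and -0.21 for Ndufb11, with edgeR adjusted p of 0.0196 for Ndufb3 up to 0.0480 for Ndufb2. Ndufb2 lost its call in each of the 10 comparisons with 1 liver left out. Core subunits of the NADH-binding part did not pass: Ndufs1 had a log2 fold change of -0.15 (adjusted p = 0.109 in edgeR), Ndufv1 one of -0.19 (0.109) and Ndufv2 one of -0.16 (0.122). Ndufs1 nevertheless had every HKO liver (100.1 to 113 CPM) below every Flox liver (116 to 126 CPM). The 1 complex I member with a positive value was Ndufa4l2, a paralogue of Ndufa4, at 0.12 (adjusted p = 0.782 in edgeR).

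In complex II, succinate dehydrogenase, only the iron-sulphur subunit Sdhb (chromosome 4, 140961203 to 140979193, plus strand) passed, at the edge of the threshold. Sdhb had 104, 112, 102, 83.3 and 97.9 CPM in HKO livers, against 140.3, 113, 116, 118 and 127 CPM in Flox livers. HKO 4 was lowest and Flox 1 highest, and the highest HKO liver was within 1 CPM of the lowest Flox liver. The log2 fold change was -0.30 (SE 0.09, adjusted p = 0.0497 in edgeR), and without HKO 4 and 5 it was -0.21 (adjusted p = 0.189 in edgeR). The call was kept in 1 of 10 comparisons with a liver left out. The flavoprotein subunit Sdha, which oxidises succinate, averaged 542 ± 57.9 CPM in HKO livers and 547 ± 29.2 CPM in Flox livers (SD, n = 5 each; log2 fold change -0.01, adjusted p = 0.938 in edgeR). On log2(FPKM + 0.5) its difference was 0.20 (adjusted p = 0.0345 in limma), so its sign changed with the scaling. The membrane anchors Sdhc and Sdhd had log2 fold changes of -0.18 (adjusted p = 0.127 in edgeR) and -0.09 (adjusted p = 0.491 in edgeR).

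Complex III, the cytochrome bc1 complex, had 3 of 9 nuclear members lower, against 6.40% of all tested genes, and a median of -0.20. The 1 member with a positive value was Uqcr11, at 0.02 (adjusted p = 0.894 in edgeR). On log2(FPKM + 0.5) it was higher, by 0.24 (adjusted p = 0.042 in limma). Uqcrh (chromosome 4, 116066965 to 116075034, minus strand), the hinge protein beside cytochrome c1, had 81.5, 85.9, 77.9, 74.5 and 83.4 CPM in HKO livers, against 103.5, 104, 90.0, 102 and 92.9 CPM in Flox livers. The groups did not overlap, and the log2 fold change was -0.29 (SE 0.06, adjusted p = 0.0155 in edgeR). Cyc1, which is cytochrome c1 itself, had 104, 106, 98.4, 89.2 and 95.8 CPM in HKO livers and 128, 113, 112.5, 121 and 123 CPM in Flox livers. It fell without overlap (log2 fold change -0.28, SE 0.06, adjusted p = 0.0195 in edgeR). Uqcrq, a small subunit next to cytochrome b, had 168, 180.4, 166, 135.5 and 166 CPM in HKO livers, against 223, 181, 192, 206 and 204 CPM in Flox livers. HKO 2 nearly reached the lowest Flox liver. Uqcrq fell by 0.30 on the log2 scale (adjusted p = 0.0394 in edgeR), and its call held in 2 of 10 comparisons with a liver left out. The Rieske iron-sulphur protein Uqcrfs1 did not pass (-0.20, adjusted p = 0.102 in edgeR), nor did the core protein Uqcrc1 (-0.23, adjusted p = 0.0676 in edgeR), although every HKO liver was below every Flox liver for Uqcrc1.

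Complex IV, cytochrome c oxidase, had 1 called gene among 15 tested nuclear subunits, at a share of 6.67% that was close to the 6.40% of all genes. Cox5b (chromosome 1, 36691449 to 36693681, plus strand), a zinc-binding subunit on the matrix side, had 75.3, 70.5, 69.9, 61.2 and 68.7 CPM in HKO livers, against 89.2, 77.2, 79.7, 85.1 and 77.2 CPM in Flox livers. The groups did not overlap, and the log2 fold change was -0.24 (SE 0.07, adjusted p = 0.0436 in edgeR), with the call kept in 1 of 10 comparisons with a liver left out. The isoforms that liver uses had negative values, and none passed. Cox4i1 had a log2 fold change of -0.13 (adjusted p = 0.326 in edgeR), Cox6a1 one of -0.11 (0.541), Cox8a one of -0.09 (0.634) and Cox7a2 one of -0.25 (0.0523). Ndufa4, kept with complex I in these counts by its name although it is now known as a subunit of complex IV, had a log2 fold change of -0.18 (adjusted p = 0.147 in edgeR). The 4 assembly factors that KEGG lists with the complex had a median of -0.04, and none passed.

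The largest positive fold changes among all members belonged to the muscle isoforms of the same subunits, and they rested on 2 livers. Cox6a2, the heart and muscle form of Cox6a1, had 2.28, 1.63, 1.67, 8.88 and 9.01 CPM in HKO livers, against 0, 0, 1.54, 2.96 and 2.71 CPM in Flox livers. Cox8b, the muscle form of Cox8a, had 0.272, 0.321, 0.343, 1.32 and 1.86 CPM in HKO livers, against 0, 0.0356, 0.341, 0.357 and 0.421 CPM in Flox livers. Cox7a1, the muscle form of Cox7a2, had 0.766, 0.554, 0.358, 2.09 and 1.96 CPM in HKO livers, against 0.632, 0.730, 0.377, 0.777 and 0.750 CPM in Flox livers. HKO 4 and 5, the libraries with the highest muscle marker sums, were highest for all 3 genes, and the other HKO livers overlapped the Flox livers. None passed: log2 fold changes were 1.71 for Cox6a2 (adjusted p = 0.352 in edgeR), 1.83 for Cox8b (adjusted p = 0.197 in edgeR) and 0.81 for Cox7a1 (adjusted p = 0.300 in edgeR). Without HKO 4 and 5 they were 0.37 for Cox6a2, 0.44 for Cox8b and -0.22 for Cox7a1.

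**Figure D3:**
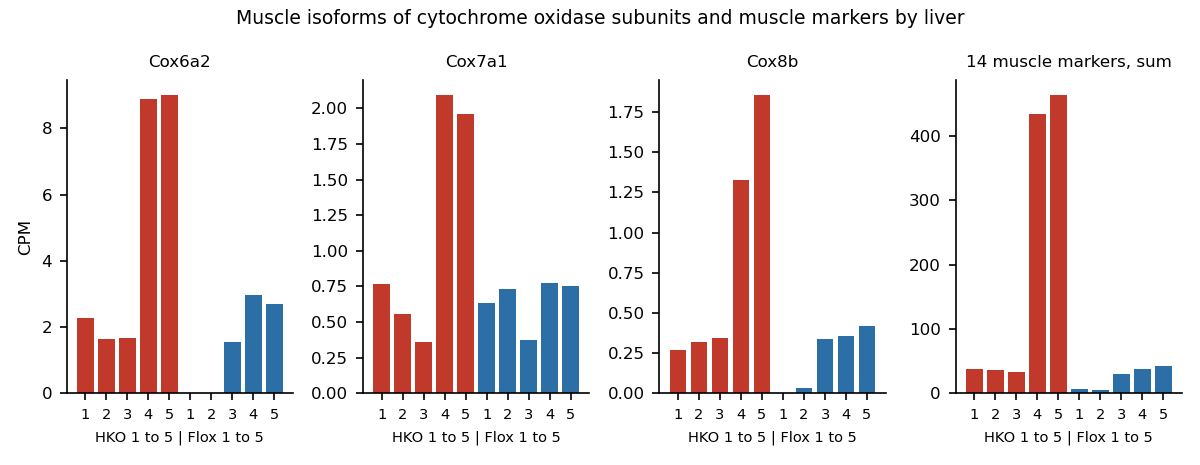
CPM of 3 muscle isoforms of cytochrome oxidase subunits and of the sum of 14 skeletal muscle markers, 1 bar per liver, with HKO 1 to 5 on the left (red) and Flox 1 to 5 on the right (blue) of each panel. HKO 4 and HKO 5 stand above every other liver in all panels, at 8.88 and 9.01 CPM for Cox6a2.

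Complex V, the ATP synthase, had a negative value in all 15 tested nuclear members and 4 that fell (26.7%, against 6.40% of all tested genes), with a median of -0.18. The peripheral stalk, which keeps the catalytic head from turning, has 4 subunits among the members, of which Atp5j (coupling factor 6) and Atp5h (subunit d) fell, while Atp5o (-0.17, adjusted p = 0.194 in edgeR) and Atp5pb (-0.07, adjusted p = 0.609 in edgeR) did not pass. Atp5j (chromosome 16, 84827866 to 84835625, minus strand) had 85.5, 87.2, 79.5, 75.9 and 79.1 CPM in HKO livers, against 107, 104, 92.7, 102 and 102 CPM in Flox livers. Every HKO liver was below every Flox liver (log2 fold change -0.32, SE 0.06, adjusted p = 0.00762 in edgeR). Atp5e, the epsilon subunit of the rotating central stalk, had 36.6, 38.6, 35.9, 32.3 and 39.0 CPM in HKO livers and 48.1, 44.1, 44.0, 49.8 and 45.6 CPM in Flox livers, with a log2 fold change of -0.34 (SE 0.07, adjusted p = 0.00774 in edgeR). These groups did not overlap either. Atp5h had 102, 95.6, 91.8, 88.0 and 93.2 CPM in HKO livers, against 125.5, 111, 109, 113 and 111 CPM in Flox livers, and fell by 0.27 on a log2 basis (adjusted p = 0.0161 in edgeR). Atp5l, subunit g in the membrane, fell by 0.25 on a log2 basis (adjusted p = 0.0481 in edgeR) with overlapping groups: it had 74.1, 79.9, 74.3, 67.0 and 76.7 CPM in HKO livers, against 100.5, 87.3, 79.8, 93.0 and 83.2 CPM in Flox livers. HKO 2 lay just above Flox 3, and the call held in 1 of 10 comparisons with a liver left out. The catalytic subunits did not pass: Atp5a1 (alpha) had a log2 fold change of -0.13 (adjusted p = 0.299 in edgeR) and Atp5b (beta) one of -0.13 (adjusted p = 0.257 in edgeR).

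Outside the complexes, KEGG lists phosphatases and ion pumps in this pathway. Ppa1 (chromosome 10, 61648552 to 61674168, plus strand), the cytosolic pyrophosphatase, had 89.0, 81.6, 87.7, 87.1 and 81.4 CPM in HKO livers, against 124, 136.5, 130.5, 151 and 127 CPM in Flox livers. The groups were far apart, at 85.4 ± 3.57 and 134 ± 10.6 CPM (SD, n = 5 each), and the log2 fold change of -0.65 (SE 0.07, adjusted p = 4.4e-04 in edgeR) made it the member with the smallest p. Without HKO 4 and 5 it was -0.63 (adjusted p = 0.00355 in edgeR). Lhpp, a phosphatase that removes phosphate from histidine and from pyrophosphate, had 47.8, 56.0, 47.4, 69.8 and 55.6 CPM in HKO livers, against 77.1, 76.6, 65.02, 71.0 and 73.6 CPM in Flox livers. HKO 4 lay within the Flox range, the log2 fold change was -0.39 (SE 0.10, adjusted p = 0.0308 in edgeR), and 2 of 10 comparisons with a liver left out kept the call. Atp4a, the catalytic subunit of the gastric proton pump, was below 1 CPM in all livers and had a log2 fold change of -0.96 (adjusted p = 0.573 in edgeR).

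Reads of some members can be shared with another gene, either a copy elsewhere in the genome or another annotated gene with the same sequence. Of 90 tested nuclear members 29 have a transcript of another gene with at least 95% identity over at least 150 bases, and how such reads were counted is not stated. Among the genes that fell these are Ndufb3, Ndufs3, Ndufb6, Ndufb11, Atp5h and Atp5l, whose values are therefore uncertain; for Ndufb6 the other gene is Smim27. The other 16 have no such copy.

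Promoters are shown for the called gene with the smallest p in each complex, to set their sequence beside the lower transcript values. The sequences are from RefSeq on GRCm38.p6, 250 bases before to 50 bases after a transcript start, 5′ to 3′ on the strand of the gene. Capitals mark CCGGAAG (or its reverse complement CTTCCGG), the core of sites for the ETS factor GABP, and ATGGCGG, the core for YY1. Neither match overlaps the other where both occur. The windows are chr17:24724374-24724673 (minus) for Ndufb10, chr4:140961021-140961320 (plus) for Sdhb, chr4:116075021-116075320 (minus) for Uqcrh, chr1:36691237-36691536 (plus) for Cox5b and chr16:84834927-84835226 (minus) for Atp5j. Atp5j has 2 windows in the table, and the one printed is the one with matches; the other, at chr16:84835576-84835875 (minus), holds none of the 4 motifs searched.
Ndufb10: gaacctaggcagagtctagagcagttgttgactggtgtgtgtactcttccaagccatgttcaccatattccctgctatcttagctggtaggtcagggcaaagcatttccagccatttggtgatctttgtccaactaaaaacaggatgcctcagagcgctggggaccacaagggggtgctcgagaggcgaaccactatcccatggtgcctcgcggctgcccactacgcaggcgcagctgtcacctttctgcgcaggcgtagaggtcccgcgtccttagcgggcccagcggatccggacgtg
Sdhb: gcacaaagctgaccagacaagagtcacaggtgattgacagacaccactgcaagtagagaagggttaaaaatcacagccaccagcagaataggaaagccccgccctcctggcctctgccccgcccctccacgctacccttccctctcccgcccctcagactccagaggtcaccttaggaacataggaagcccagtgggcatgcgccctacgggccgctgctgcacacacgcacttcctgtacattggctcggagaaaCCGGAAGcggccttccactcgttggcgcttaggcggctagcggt
Uqcrh: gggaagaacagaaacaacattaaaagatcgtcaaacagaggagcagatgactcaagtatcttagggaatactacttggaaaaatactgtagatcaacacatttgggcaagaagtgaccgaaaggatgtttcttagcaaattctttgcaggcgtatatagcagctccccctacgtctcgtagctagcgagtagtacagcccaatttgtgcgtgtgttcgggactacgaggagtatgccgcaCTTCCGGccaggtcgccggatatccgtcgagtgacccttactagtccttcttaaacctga
Cox5b: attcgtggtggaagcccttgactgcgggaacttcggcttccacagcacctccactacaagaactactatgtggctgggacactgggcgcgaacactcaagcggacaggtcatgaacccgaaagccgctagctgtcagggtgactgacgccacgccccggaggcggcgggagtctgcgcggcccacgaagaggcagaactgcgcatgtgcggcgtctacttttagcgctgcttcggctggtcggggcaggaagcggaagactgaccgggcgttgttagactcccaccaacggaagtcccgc
Atp5j: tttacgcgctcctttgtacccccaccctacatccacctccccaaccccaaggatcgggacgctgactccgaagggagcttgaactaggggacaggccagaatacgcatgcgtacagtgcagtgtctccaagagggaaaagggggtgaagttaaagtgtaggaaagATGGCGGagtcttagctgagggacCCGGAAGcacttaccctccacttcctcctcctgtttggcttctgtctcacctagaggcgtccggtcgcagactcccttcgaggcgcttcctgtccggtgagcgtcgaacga

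CCGGAAG, on either strand, occurs in the windows of Sdhb and Uqcrh and in 1 of the 2 of Atp5j, and not in those of Ndufb10 and Cox5b. The promoter table held 78 promoters of 73 tested nuclear members. CCGGAAG was in 23.1% of these, in 50.0% (10 of 20) of the promoters of called genes and in 13.8% (8 of 58) of those of the others, against 14.9% of 15976 promoters of all tested genes and 8.86% of all 32851 in the table. ATGGCGG was in 16.7% of the members' promoters (15.0% of called, 17.2% of the others), against 6.68% for all tested genes. The NRF1 core (GCGCA, any base, GCGC) was in 24.4% (15.0% of called, 27.6% of the others), against 8.33%. TCAAGGTCA, the core for estrogen-related receptors, was in 2.56% (0 called), against 0.300%. These shares were not tested, and a match is not a bound site.

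The 13 mitochondrially encoded genes overlapped between the genotypes, and 1 liver of each group stood highest. None of the 13 passed the test (1 at an unadjusted p under 0.05; 1 was lower by DESeq2, and 3 were higher under quantile normalization and 3 on FPKM by limma), 9 had a negative fold change, and the median was -0.07. Among all tested genes 11.3% were called in either direction in edgeR, a share at which few of 13 genes would pass. In all 13 HKO 1 was the highest HKO liver and Flox 1 the highest Flox liver. As a share of all counts the 13 genes together took 7.49%, 6.13%, 6.19%, 6.43% and 6.58% in HKO livers, against 6.95%, 5.68%, 6.44%, 5.54% and 5.68% in Flox livers. After TMM scaling the sums were 55308 to 75096 CPM in HKO livers and 58812 to 77540 CPM in Flox livers. The sign of the median changed with the scaling: it was 0.29 under quantile normalization and 0.15 on FPKM. It also changed with the libraries, to 0.02 without HKO 4 and 5.

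**Figure D4:**
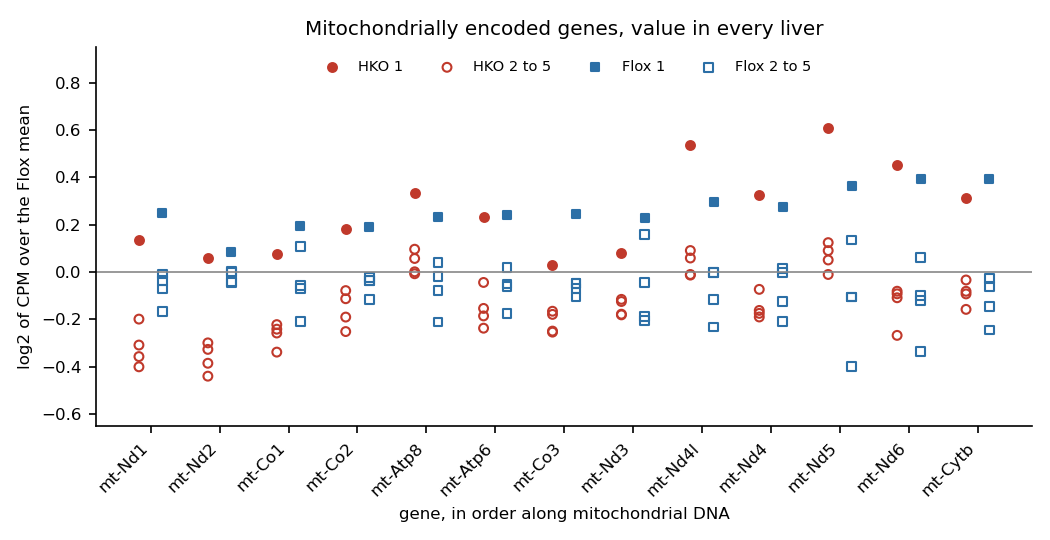
Log2 of CPM over the Flox mean for the 13 mitochondrially encoded genes, in their order along mitochondrial DNA, with circles for HKO livers and squares for Flox livers. Filled symbols mark HKO 1 and Flox 1, which are the highest of their groups for all 13 genes, and no gene separates the groups.

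The first genes along the molecule, mt-Nd1 and mt-Nd2, had the lowest values. mt-Nd2 (MT, 3914 to 4951), a membrane core subunit of complex I, had 6106, 4759, 4317, 4670 and 4484 CPM in HKO livers, against 6208, 5864, 5841, 5681 and 5691 CPM in Flox livers. HKO 1 lay within the Flox range and the other 4 HKO livers below it, with a log2 fold change of -0.27 (SE 0.10, adjusted p = 0.102 in edgeR). Without HKO 1 it passed the threshold (adjusted p = 0.0107 in edgeR). mt-Nd1 (MT, 2751 to 3707) had 4665, 3318, 3432, 3220 and 3703 CPM in HKO livers and 5058, 4225, 4144, 4045 and 3785 CPM in Flox livers (log2 fold change -0.21, SE 0.12, adjusted p = 0.265 in edgeR). mt-Co1, the catalytic subunit of complex IV and the most abundant member, ranged from 19021 to 25365 CPM in HKO livers and from 20788 to 27514 CPM in Flox livers, with a log2 fold change of -0.19 (adjusted p = 0.282 in edgeR).

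The other complex IV subunits were mt-Co2, with 2909 to 3932 CPM in HKO livers and 3191 to 3955 CPM in Flox livers (log2 fold change -0.08, adjusted p = 0.632 in edgeR), and mt-Co3, with 3522 to 4293 CPM in HKO livers and 3904 to 4983 CPM in Flox livers (-0.16, adjusted p = 0.284 in edgeR). Both groups overlapped for each.

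Further along, several values lay near 0. mt-Cytb, cytochrome b of complex III, had a log2 fold change of -0.00 (adjusted p = 0.997 in edgeR), and mt-Nd4 one of -0.04 (adjusted p = 0.864 in edgeR). The small complex I subunits mt-Nd3 and mt-Nd4l had log2 fold changes of -0.10 (adjusted p = 0.546 in edgeR) and 0.15 (adjusted p = 0.493 in edgeR). mt-Nd5 (MT, 11742 to 13565) had the highest positive value, 0.19 (SE 0.15, adjusted p = 0.468 in edgeR), with 6333, 4300, 4524, 4121 and 4419 CPM in HKO livers, against 5334, 3150, 4558, 3858 and 3857 CPM in Flox livers. mt-Nd6, the gene on the other strand, overlaps the end of mt-Nd5 and had a log2 fold change of 0.00. No source used here says if strand was used in counting, so reads in that overlap cannot be told apart.

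The ATP synthase pair mt-Atp8 and mt-Atp6 share a transcript and overlap by 43 bases, so reads there belong to both. The shared stretch (MT, 7927 to 7969, plus strand, from the GENCODE M21 transcripts) is shown because it limits how far the pair can be read as separate genes, with the start codon of mt-Atp6 in capitals.
mt-Atp8 and mt-Atp6 overlap: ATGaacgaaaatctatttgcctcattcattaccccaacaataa

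mt-Atp8 had 1277 to 1618 CPM in HKO livers and 1109 to 1509 CPM in Flox livers, and mt-Atp6 had 3632 to 5026 CPM in HKO livers and 3788 to 5053 CPM in Flox livers. mt-Atp8 had a log2 fold change of 0.10 (adjusted p = 0.548 in edgeR) and mt-Atp6 one of -0.07 (adjusted p = 0.738 in edgeR). Transcripts of other genes with at least 95% identity over at least 150 bases exist for 9 of the 13 mitochondrial genes.

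Transcript levels of the members spanned several orders of magnitude. On the deposited FPKM, which divides by gene length, the mitochondrially encoded genes had a median level of 4330, from 723 for mt-Nd3 to 12820 for mt-Co1. The tested nuclear subunits had a median level of 39.1 FPKM, with Atp5a1 (243 FPKM) and Atp5b (199.8 FPKM) at the top. By complex, median levels of nuclear subunits were 28.3 FPKM for complex I, 79.9 for complex II, 67.7 for complex III, 41.9 for complex IV and 47.3 for complex V. The muscle isoforms were at 1.37 to 4.24 FPKM, against 62.2 to 182.5 FPKM for their liver forms Cox7a2, Cox8a and Cox6a1. The gene lengths behind the deposited FPKM often exceed the coding transcript: Ndufb7 was divided by about 5130 bases, while its median coding transcript in GENCODE M21 has 623. Per kilobase of that coding transcript, the median level was 4923 CPM for the mitochondrially encoded genes and 97.9 CPM for the nuclear subunits, a smaller gap than on FPKM. On that scale the nuclear medians were 59.2 CPM per kilobase for complex I, 162 for complex II and 152 for complex III. They were 104 for complex IV and 163 for complex V, so the place of complex V among the complexes depended on the lengths used. The coding lengths are medians over all coding transcripts of a gene, so short transcripts can lower them. They were 533 bases for Uqcrc1 and 651 for Ndufs1, so levels on this scale are approximate too.

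Of the genes that build the chain but are not among the members, 7 assembly factors fell and 1 inhibitor rose. Of 15 tested complex I assembly factors 5 fell and none rose (median log2 fold change -0.18), against 6.40% lower and 4.86% higher among all tested genes. Ecsit, a factor for the membrane arm, had 29.1, 24.4, 24.05, 25.1 and 26.1 CPM in HKO livers, against 36.3, 34.9, 33.1, 33.3 and 38.4 CPM in Flox livers (log2 fold change -0.45, SE 0.07, adjusted p = 0.00288 in edgeR). Its partner Ndufaf1 fell by 0.37 on a log2 basis (adjusted p = 0.00685 in edgeR), and Ndufaf3, Foxred1 and Timmdc1 also fell. Ecsit and Ndufaf1 passed in all 10 comparisons with a liver left out, Foxred1 in 9, Ndufaf3 in 5 and Timmdc1 in 1. Without HKO 4 and 5, Foxred1, Ndufaf3 and Timmdc1 did not pass (edgeR adjusted p of 0.0789, 0.128 and 0.134). Of 17 complex IV assembly factors 2 fell, Surf1 (-0.27, adjusted p = 0.0214 in edgeR) and Coa3 (-0.28, adjusted p = 0.0407 in edgeR), and of the factors for complexes II (4 tested) and III (6 tested) none passed. With a liver left out Surf1 passed in 9 of 10 comparisons and Coa3 in 1, and neither passed without HKO 4 and 5 (edgeR adjusted p of 0.0890 and 0.226). Of 5 genes for complex V assembly and inhibition, Atpif1, the inhibitor of ATP synthase running backwards, rose by 0.42 on the log2 scale (SE 0.12, adjusted p = 0.0494 in edgeR). Atpif1 averaged 13.2 ± 1.73 CPM in HKO livers and 9.87 ± 1.52 CPM in Flox livers (SD, n = 5 each), the groups overlapped, and the call was kept in 2 of 10 comparisons with a liver left out.

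Of 19 genes for electron carriers and coenzyme Q synthesis 6 fell and none rose (median log2 fold change -0.20), against 6.40% lower among all tested genes. Etfb, a subunit of the flavoprotein that takes electrons from fatty acid oxidation, had 163, 168, 159, 145 and 151 CPM in HKO livers, against 238, 240.2, 225, 266 and 254 CPM in Flox livers. All HKO livers were below all Flox livers, with a log2 fold change of -0.64 (SE 0.07, adjusted p = 4.6e-04 in edgeR). Its partner Etfa had a log2 fold change of -0.46 (adjusted p = 0.00166 in edgeR), and Etfdh, which passes these electrons to coenzyme Q, one of -0.40 (adjusted p = 0.00509 in edgeR). The coenzyme Q synthesis enzymes Coq3 (-0.51, adjusted p = 0.00486 in edgeR), Coq6 (-0.42, adjusted p = 0.00960 in edgeR) and Coq5 (-0.28, adjusted p = 0.0468 in edgeR) also fell. Coq5 kept its call in 2 of 10 comparisons with a liver left out and had an edgeR adjusted p of 0.179 without HKO 4 and 5, while the other 5 passed in all of these. Gpd2 and Dhodh, enzymes that also reduce coenzyme Q, did not pass (-0.13, adjusted p = 0.751 for Gpd2 and -0.31, adjusted p = 0.172 for Dhodh, both in edgeR).

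Of 14 genes for mitochondrial DNA replication and transcription 2 fell and of 16 for mitochondrial RNA processing 3 fell, against 6.40% of all tested genes. Polg, the DNA polymerase, and Tefm, an elongation factor, fell by 0.24 and 0.40 on a log2 basis (adjusted p = 0.0397 and 0.0456 in edgeR). Hsd17b10, a subunit of mitochondrial RNase P that is also a dehydrogenase, had 191.5, 151, 130.4, 147 and 116 CPM in HKO livers, against 256, 266, 252, 292 and 262 CPM in Flox livers, with a log2 fold change of -0.85 (SE 0.12, adjusted p = 0.00132 in edgeR). The groups did not overlap. Pnpt1, a mitochondrial RNA nuclease, and Elac2, which cuts tRNA ends, fell by 0.30 and 0.22 on a log2 basis (adjusted p = 0.0290 and 0.0380 in edgeR). With a liver left out, Hsd17b10 passed in all 10 comparisons, Pnpt1 in 5, Polg in 3, and Tefm and Elac2 in 2 each; without HKO 4 and 5 only Hsd17b10 of these 5 passed.

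Of 10 transcriptional regulators of mitochondrial genes 1 fell, a share close to the 6.40% of all tested genes. Esrrg, an orphan nuclear receptor that binds promoters of oxidative genes, had 3.85, 3.98, 4.41, 4.36 and 4.62 CPM in HKO livers, against 6.65, 6.90, 6.82, 6.49 and 8.86 CPM in Flox livers (log2 fold change -0.75, SE 0.12, adjusted p = 0.00387 in edgeR). Every HKO liver was below every Flox liver. Ppargc1a, the coactivator of mitochondrial biogenesis, depended on 1 liver: it had 16.2, 10.7, 10.3, 10.2 and 9.33 CPM in HKO livers, against 43.6, 7.23, 8.58, 7.05 and 5.20 CPM in Flox livers. With all livers its log2 fold change was -0.34 (SE 0.56, adjusted p = 0.754 in edgeR), and without Flox 1 it was 0.69 (adjusted p = 0.0383 in edgeR). Gabpa, which encodes the GABP alpha subunit, had a log2 fold change of 0.10 (adjusted p = 0.405 in edgeR), Nrf1 one of -0.25 (0.330), Esrra one of -0.00 (0.987) and Yy1 one of -0.02 (0.895). Of 8 uncoupling proteins and carriers Vdac3, an outer membrane channel, fell by 0.22 on a log2 basis (adjusted p = 0.0226 in edgeR).

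**Figure D5:**
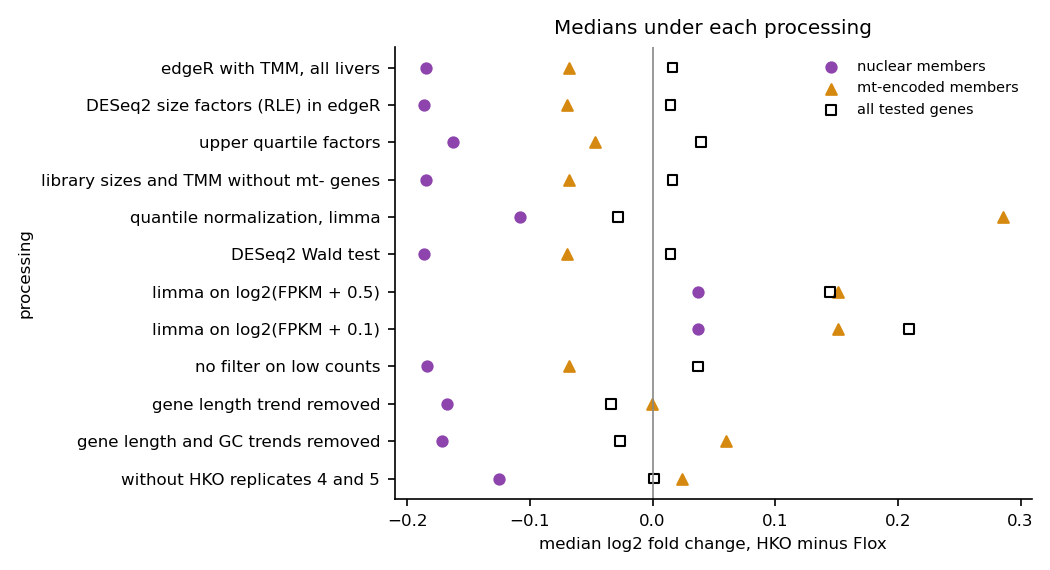
Median log2 fold change (HKO minus Flox) of nuclear members, mitochondrially encoded members and all tested genes under each processing, 1 row per processing. The nuclear median lies below that of all genes in every row, at -0.18 against 0.02 with TMM and at 0.04 against 0.14 on log2(FPKM + 0.5); the mitochondrial median is on both sides of 0.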

How the data were processed

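RNA-seq of 10 livers was analysed, 5 per genotype. The p-values set the difference between genotypes against the spread between livers, and treat the livers as independent. The labels do not say which livers share a litter, so shared litters could not be accounted for. Estimated counts (whole numbers) and FPKM of 31218 genes were deposited, per the file headers. Per the labels' protocols, polyadenylated RNA was read in pairs of 150 bases from strand-marked libraries. The submitters' processing notes name edgeR, DESeq2, StringTie 2.1.6, HISAT2 2.2.1 and cutadapt 1.9, with no step for each. No source used here names the build; coordinates are the table's, and 91 of 105 members have the same ones in GENCODE M21. Deposited FPKM are counts over length and library size: across 7327 genes with 500 or more counts in every liver, the log2 ratio of count to FPKM varied between livers with an SD of at most 0.00093.

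The test was edgeR 4.0.16 in R 4.3.3 (filterByExpr, TMM, robust quasi-likelihood, two-sided), fitted on all 18065 genes kept, with Benjamini-Hochberg adjustment over all of them and a threshold of 0.05. The design was written for either unit, and counts were present. The fits were also run on simulated data, with planted changes larger than those of the called members. That run does not show how well changes of the size reported here are found. Alternatives used limma 3.58.1 and DESeq2 1.42.0, and near-identical transcripts were found with blastn 2.17.0. The rule for named genes took up to 6 nuclear members per complex with the smallest p past the threshold, all mitochondrially encoded genes, the largest fold changes, the 3 highest FPKM, tissue isoform pairs, up to 4 genes past the threshold per other list, the transcriptional regulators and Me1. Genes named beyond that (further called members, complex II subunits, core subunits, Uqcr11, Atp5a1, Atp5b, further list genes) were chosen after their values were seen. The members and all lists were chosen with earlier results of these data known. The pathway column had 6 cells with their content removed, which were not used here.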

Additional observations from a re-analysis of the deposited data

Results flagged for a closer look

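For 170 combinations of a named gene (without Uqcr11) and a group, the liver farthest from the rest was compared with Dixon's critical value for 5 samples. Chance passes it in about 1 of 20 groups, and 25 passed. The combinations share the same livers and are not independent, so the 25 cannot be set against that rate. HKO 1 and Flox 1 were each the highest of their group in all 13 mitochondrially encoded genes. HKO 1 stood above the other HKO livers in 10 mitochondrially encoded genes: mt-Nd2 with 6106 CPM (the others 4317 to 4759), mt-Nd3 with 312 (260.7 to 273), mt-Nd4 with 5412 (3789 to 4108), mt-Nd4l with 979.7 (670.4 to 720.4), mt-Nd5 with 6333 (4121 to 4524), mt-Nd6 with 1629 (989 to 1125), mt-Cytb with 9463 (6835 to 7449), mt-Co1 with 25365 (19021 to 20615), mt-Co3 with 4293 (3522 to 3745) and mt-Atp8 with 1618 (1277 to 1373). Flox 1 stood above the other Flox livers in mt-Co3 with 4983 CPM (3904 to 4060) and mt-Co2 with 3955 (3191 to 3410).

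Among nuclear subunits, HKO 4 was below the other HKO livers in Ndufs4 with 34.6 CPM (36.5 to 37.0) and Ndufa4 with 113 (137 to 144), and Flox 1 was above the other Flox livers in Atp5h with 125.5 CPM (109 to 113), Ndufb2 with 19.9 (15.8 to 16.96) and Cox4i1 with 342 (281 to 298). Outside the members, HKO 1 had 16.2 CPM of Ppargc1a (the other HKO livers 9.33 to 10.7) and Flox 1 had 43.6 CPM (the other Flox livers 5.20 to 8.58). Flox 3 had 12.5 CPM of Atpif1 (8.65 to 9.51), Flox 4 had 64.4 of Polg (54.4 to 56.4) and 29.6 of Pnpt1 (23.6 to 24.6), and Flox 5 had 8.86 of Esrrg (6.49 to 6.90). Me1 was highest within its group in HKO 5 with 26.9 CPM (20.5 to 22.2) and in Flox 1 with 227.5 CPM (145 to 164).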

How the results depend on the processing

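The count of 22 lower nuclear members was 22 with RLE factors, 22 without mitochondrial genes in the library sizes, 18 with upper quartile factors, 31 with DESeq2, and 23 and 21 with length or length and GC trends removed. It was 16 among members with no near-identical transcript elsewhere, an alternative chosen after seeing the data. It was 10 with quantile normalization, 14 with no filter on low counts, 6 without HKO 4 and 5, and 1 on log2(FPKM + 0.5) and on log2(FPKM + 0.1). Higher nuclear members were 2 with quantile normalization and 2 on both FPKM settings. With 1 liver left out, 11 to 22 were lower, under 15 without HKO 3 (14), HKO 4 (13), HKO 5 (13), Flox 1 (14), Flox 4 (11) or Flox 5 (12); 0 were higher, and the median was -0.21 to -0.13. That median turned to 0.0368 and 0.0370 on the FPKM settings. Lower mitochondrially encoded members were 1 with DESeq2 and 0 to 1 with a liver left out; higher ones were 3 with quantile normalization and 3 on both FPKM settings. Their median was 0.29 with quantile normalization, 0.15 on both FPKM settings and -0.14 to -0.00 with a liver left out. Over all genes, 2034 called became 3192 (1566 higher) with DESeq2, 3608 and 3649 (3212 and 3253 higher, 396 lower in both) on the FPKM settings, 993 (454 higher, 539 lower) without HKO 4 and 5, and 1189 to 2220 (498 to 1058 higher, 691 to 1162 lower) with a liver left out. Calls were 43.2% higher with TMM, 89.0% on log2(FPKM + 0.5) and 29.9% with the length trend removed. On both FPKM settings 32 of 90 nuclear members were negative, against 85 with TMM, and 1 of 13 mitochondrially encoded ones, against 9. Among named genes past the threshold with TMM or on FPKM, those that turned in sign on FPKM, with a pseudocount of 0.5 and of 0.1, were Ndufb11 (0.0077 and 0.0078), Elac2 (0.0006 in both), Vdac3 (0.0020 in both), Yy1 (0.19 and 0.20) and Sdha (0.20 in both), and without Flox 1, Ppargc1a (0.69, with -0.55 the lowest value when a liver was left out). Uqcr11, past the threshold on FPKM and not with TMM, had -0.0083 as its lowest value when a liver was left out. The FPKM settings keep library sizes without TMM factors. Other causes were not tested. No paired analysis was possible because the liver numbers in the titles are not shared between the genotypes. Depth was similar in all livers; Cox4i2 and Atp12a were too low to test, and the muscle isoforms rest on few counts.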
